A study of Danio rerio with 17 samples.

Results

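The genes described here mark the hatching gland of the zebrafish embryo. They are the rows he1.1, he1.2, cd63, ctsl1b and klf17 of the deposited count files, chosen by name with earlier results of these data known. All 5 were found among the 15316 genes counted, with ctsl1b listed under its current RefSeq symbol, ctslb, and 4 of the 5 passed the filter on low counts that left 13539 genes to test. The hatching gland is a transient sheet of secretory cells that derives from the prechordal plate and comes to lie over the yolk and pericardium. Its cells fill with granules of zinc metalloproteases, the hatching enzymes, and empty them at hatching so that the egg envelope, the chorion, is digested. After hatching the gland cells are lost, so that gland transcripts are known to decline as larvae come out of the chorion. he1.1 and he1.2 encode the hatching enzymes, astacin-type proteases, and ctslb, first named hatching gland gene 1, encodes a cathepsin L-type cysteine protease. cd63 encodes a tetraspanin of late endosomes and secretory granules, and klf17 a Krüppel-like transcription factor that acts early in forming the gland. cd63 and klf17 are also expressed outside the gland.

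The data are RNA-seq read counts from pools of 10 whole embryos of the AB line, a common wild-type laboratory line, frozen at 72 hours post fertilization (hpf). FFA pools (n = 6) had been injected into the yolk at 24 hpf with a BODIPY-labelled, fluorescent lipid in canola oil at 1 mg/ml. Glucose pools (n = 6) had been exposed to 3% glucose, begun at 24 hpf, and control pools (n = 5) carry no treatment in their labels. Whether control embryos were injected, and whether embryos of any pool had hatched or were freed from the chorion by hand, the sources used here do not say. Each pool is 1 library. The labels do not say that pools came from separate clutches, and p-values therefore cover only the spread from pool to pool. Libraries held 10208640 to 16745675 counts on genes. The share of all counts outside annotated genes (the no-feature line) was 31.1 to 35.8% in FFA, 30.2 to 36.2% in glucose and 29.9 to 36.6% in control libraries. In bulk RNA from whole embryos, fewer gland cells and less RNA per gland cell cannot be told apart.

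Groups follow the sample titles, but the treatment tags of 11 of the 17 libraries name another group. From replicate 2 to replicate 6 the FFA titles carry the tag glucose and the glucose titles the tag FFA, and the tag of glucose replicate 1 is control. The he1.1 counts divide the FFA titles from the others, while glucose and control titles overlap. For he1.2, FFA replicate 6, with 15 counts, lies within the glucose range (8 to 22) and the control range (0 to 18). FFA replicate 1, the one FFA library whose tag and title match, had 164 he1.1 counts, within the 38 to 246 of FFA replicates 2 to 6 and above the 10 to 22 of glucose replicates 2 to 6, which share its tag. Glucose replicate 1 had 16, within both the glucose and the control range. In the order of the deposited samples the tags run in unbroken blocks of control, FFA and glucose. The titles run control, glucose and FFA. Which of the 2 is right was not tested. By themselves the values above do not decide between the names of both treatments. Were the tags of replicates 2 to 6 right, the higher levels given below for FFA would belong mostly to glucose. Over all genes, edgeR called 1 for FFA against control by the tags, beside 246 by the titles. Grouped by the tags, he1.1 had log2 fold changes of 2.0 for FFA against control (adjusted p = 0.219) and 3.83 for glucose against control (adjusted p = 0.0132, edgeR).

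Both hatching enzyme genes rose in FFA pools. FFA replicates 1 to 6 held 164, 217, 137, 246, 122 and 38 counts of he1.1, against 16, 5, 2, 21 and 4 in control replicates 1, 2, 3, 4 and 6. Scaled to the library total (CPM, with TMM scaling), he1.1 had 3.43 as the lowest, 11.1 as the median and 17.8 as the highest FFA value, against 1.08, 0.331, 0.174, 1.64 and 0.272 in the controls. Every FFA pool lay above every control pool (libraries did not overlap for 2.30% of all genes, with FFA higher for 183 and lower for 128), although the highest FFA value was 5.18 times the lowest. The group means were 11.1 ± 4.86 CPM in FFA (SD, n = 6) and 0.699 ± 0.637 CPM in control (n = 5), a 15.7-fold difference (log2 fold change 3.98 ± 0.447, SE, edgeR quasi-likelihood test, Benjamini-Hochberg adjusted p = 0.000118). It was the fifth largest log2 fold change among the 13539 genes of this comparison. In counts, control replicate 3 had 2 reads, a share with a 95% Wilson interval of 0.0478 to 0.636 CPM, and FFA replicate 6 had 38, with an interval of 2.5 to 4.71 CPM. These intervals cover counting error alone.

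he1.2 divided the libraries as he1.1 did, with 1 exception. Its counts were 137, 164, 106, 134, 102 and 15 in FFA replicates 1 to 6, against 18, 9, 0, 18 and 5 in control replicates 1, 2, 3, 4 and 6. In CPM, he1.2 ran from 1.36 through a median of 8.84 to 10.6 in FFA, against 1.21, 0.596, 0, 1.41 and 0.340 in the controls. The 0 in control replicate 3 allows up to 0.262 CPM (3 counts). In 5 of 6 FFA pools he1.2 lay above every control, while FFA replicate 6, at 1.36 CPM, lay within the control range, so the groups overlapped. The mean was 7.85 ± 3.40 CPM in FFA and 0.711 ± 0.590 CPM in control, a 10.8-fold difference (log2 fold change 3.44 ± 0.510, edgeR adjusted p = 0.00127). These 2 of the 4 members tested were called, where 1.82% of all genes were (149 higher and 97 lower in FFA). Since the members were chosen with earlier results of these data known, this count is no independent evidence. he1.1 exceeded the level set by the count filter in 6 FFA, 6 glucose and 2 control libraries and he1.2 in 6 FFA, 5 glucose and 2 control libraries, so neither entered the test through the FFA libraries alone.

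**Figure D1:**
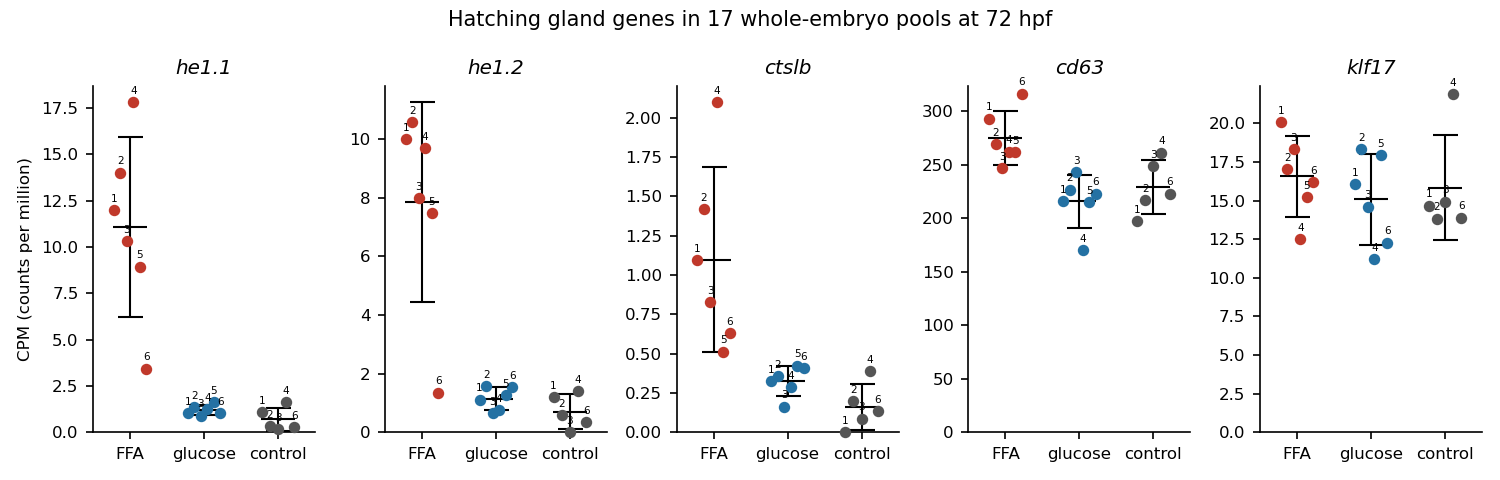
Level of each gene in every library, in CPM on a linear axis from 0, with FFA, glucose and control pools side by side; points are libraries with their replicate numbers, and black lines the mean ± SD. All 6 FFA pools lie above all controls for he1.1 and ctslb, FFA replicate 6 lies among the controls for he1.2, and the groups overlap for klf17.

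In glucose pools the hatching enzymes were at levels that overlapped those of the controls. he1.1 had 16, 19, 11, 22, 19 and 10 counts in glucose replicates 1 to 6, which is 0.898 to 1.61 CPM with a median of 1.16. The mean was 1.2 ± 0.265 CPM in glucose and 0.699 ± 0.637 CPM in control (log2 fold change 0.78, 95% interval -0.32 to 1.88, edgeR adjusted p = 0.379). he1.2 averaged 1.15 ± 0.390 CPM in glucose and 0.711 ± 0.590 CPM in control (log2 fold change 0.64, interval -0.60 to 1.89, adjusted p = 0.530). Both intervals include 0 and also a more than 3-fold higher level in glucose, so an effect of that size is not excluded at these counts. Of the 4 members tested, 0 were called in glucose against control by edgeR, limma-voom or DESeq2, where 10.9% of all genes were called by edgeR (795 higher and 679 lower in glucose, or 652 and 856 when scaled by library size alone), and 0 of the 4 had an unadjusted p under 0.05. All 5 genes overlapped between glucose and control libraries, where 6.90% of all genes did not.

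Set against each other, the treatments differed in both genes. he1.1 was 9.17-fold higher in FFA than in glucose pools (log2 fold change 3.2 ± 0.387, edgeR adjusted p = 4.36e-05), with all 6 FFA pools above all 6 glucose pools (8.69% of all genes did not overlap, with FFA higher for 612). he1.2 was 6.93-fold higher (log2 fold change 2.79 ± 0.450, adjusted p = 0.000507), with 5 of 6 FFA pools above all glucose pools. The order of the mean levels was therefore FFA, glucose and control for both genes, and the lower pair, glucose and control, did not differ beyond their spread. The FFA comparisons with glucose and with control share the same 6 FFA pools.

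he1.1 and he1.2 are close copies, and how the authors' counting divided reads that match both the sources used here do not say. In the RefSeq annotation of GRCz12tu they are direct neighbours on chromosome 22, followed by he1.3, and all 3 lie within the span of aox5, an aldehyde oxidase gene. The files were made on another build, danRer7. Of the reads on the pair, he1.1 took 58.4% in FFA (924 of 1582 counts), 51.9% in glucose (97 of 187) and 49.0% in control (48 of 98). By library this share was 54.5 to 71.7% in FFA and 40.0 to 62.9% in glucose. FFA replicate 6 had the largest share in FFA, 38 of 53 counts (exact 95% interval 57.7 to 83.2%). With the counts of both genes added up as 1 gene, the log2 fold change was 3.73 for FFA against control (adjusted p = 0.000316) and 3.02 for FFA against glucose (adjusted p = 0.000128), an alternative chosen after seeing the data. The third copy, he1.3, had 1 count in all 6 FFA libraries, 3 in the 6 glucose and 4 in the 5 control libraries, which is at most 2 reads in any library and under the floor of 3 counts. aox5 averaged 69.3 ± 9.59 CPM in FFA, 84.1 ± 15 in glucose and 69.1 ± 21.8 in control, and its log2 fold change for FFA against control was 0.01 (adjusted p = 0.998).

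ctslb, the gland's cathepsin L-type protease, was counted in few reads. FFA replicates 1 to 6 held 15, 22, 11, 29, 7 and 7 counts, glucose replicates 5, 5, 2, 5, 5 and 4, and control replicates 1, 2, 3, 4 and 6 held 0, 3, 1, 5 and 2. Every FFA pool lay above every glucose and every control pool. The gap was small, with 7 counts in FFA replicates 5 and 6 beside 5 in control replicate 4, which is within counting error. Among the 13539 genes that passed the filter, libraries did not overlap for 2.30% in FFA against control and for 8.69% in FFA against glucose. ctslb is not among these better counted genes, so the shares are no direct background for it. Mean levels were 1.1 ± 0.589 CPM in FFA, 0.329 ± 0.0957 CPM in glucose and 0.163 ± 0.147 CPM in control. Because only 4 libraries, all of them FFA, reached the 0.749 CPM that the filter asks of 5, ctslb was not tested with the rest. In a fit without the filter, over 14775 genes, its log2 fold change was 2.73 ± 0.484 for FFA against control (edgeR adjusted p = 0.00567, where 1.68% of genes were called) and 1.75 ± 0.402 for FFA against glucose (adjusted p = 0.00703, where 15.5% were). For glucose against control it was 0.98 ± 0.588 (adjusted p = 0.336, where 9.66% were called). When any single control library was left out, ctslb met the filter through its FFA values and was called for FFA against control, with adjusted p between 0.00371 and 0.0223. A gene that enters a test only through its high group had to differ, so these calls add nothing to the values by library.

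The other cathepsins and their relatives moved in both directions against control. The list of 17 tested genes also holds the gene of a cathepsin inhibitor, which is no protease. Of the 17, 1 was higher and 3 were lower in FFA than in control. Their median log2 fold change was 0.03, beside -0.01 over all genes. The higher one was ctss2.1, a cathepsin S gene, at 14.2 ± 3.2 CPM in FFA and 7.27 ± 2.0 CPM in control (log2 fold change 0.96, adjusted p = 0.00693). The lower ones were lgmn, which encodes the lysosomal protease legumain (356 ± 49.5 CPM in FFA, 499 ± 68.5 CPM in control, log2 fold change -0.49, adjusted p = 0.0109), ctsbb (-1.29, adjusted p = 0.0136) and the cathepsin L gene ctsl.1 (-0.78, adjusted p = 0.0285). The ctsl.1 call ended in 7 of the 11 fits that left out 1 library, those without control replicates 3, 4 or 6 or FFA replicates 2, 3, 4 or 5 (adjusted p 0.0519 to 0.0863). In glucose against control 1 was higher and 4 were lower of the 17, among them ctsl.1 (-1.74, adjusted p = 9.49e-06), ctsbb (-2.52) and lgmn (-0.81). In FFA against glucose 6 of the 17 were higher and 0 lower by edgeR, with 8 at an unadjusted p under 0.05, 2 of them lower. DESeq2 called 6 higher and 1 lower there, and limma-voom 6 higher and 0 lower. Of all genes, edgeR called 1.82% in FFA against control, 10.9% in glucose against control and 17.0% in FFA against glucose. Like ctslb, ctss2.1 stood highest in FFA, at 14.2 ± 3.2 CPM in FFA, 5.69 ± 0.874 in glucose and 7.27 ± 2.0 in control, and it was also called for FFA against glucose (1.32 ± 0.17, edgeR adjusted p = 7.66e-05). By contrast ctsl.1 averaged 28.3 ± 7.5 CPM in FFA, 14.6 ± 2.61 in glucose and 48.8 ± 12.4 in control, an order in which control stood highest, whereas for ctslb control stood lowest.

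cd63, the tetraspanin of secretory granules, was higher in FFA than in glucose pools. Its 6 FFA values ran from 247 through a median of 266 to 316 CPM, its glucose values from 170 through 220 to 243 CPM, and its control values were 198, 217, 248.5, 261 and 223 CPM. All 6 FFA pools lay above all 6 glucose pools, 2 groups that did not overlap for 8.69% of all genes. Of the 6, 5 lay above all controls, 2 of them by less than 1 CPM. The means were 275 ± 25.3 CPM in FFA, 216 ± 24.5 CPM in glucose and 229 ± 25.4 CPM in control. The log2 fold change was 0.35 ± 0.0861 for FFA against glucose (edgeR adjusted p = 0.0100), so that 3 of the 4 tested members were called higher there, where 17.0% of all genes were called (1081 higher and 1218 lower in FFA). For FFA against control it was 0.26 ± 0.0904, which missed the threshold over all genes (adjusted p = 0.217, unadjusted p = 0.0101), and for glucose against control -0.09 ± 0.0901 (adjusted p = 0.574). Where he1.1 differed 15.7-fold between FFA and control pools, the cd63 difference was 1.2-fold, with a 95% interval of 0.07 to 0.45 on the log2 scale.

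Within groups cd63 moved with the share of counts outside genes, a property of the libraries along which many genes vary. In deviations from the group means over the 17 libraries, Pearson r was -0.879 (permutation p within groups = 7e-05) and Spearman rho -0.907 (p = 4e-05), and r was -0.79 without the 2 farthest libraries. Adjusted over the 5 relations computed, 1 per member, the p-values were 0.00035 and 2e-04. Within FFA alone r was -0.703 and within glucose -0.921, n = 6 each; control holds 5 libraries, too few for a value. klf17 moved the same way (r = -0.679, adjusted permutation p = 0.0145, rho = -0.645, adjusted permutation p = 0.0232, r = -0.615 without the 2 farthest). For he1.1 r was 0.15 (adjusted permutation p = 0.718), rho 0.169 and r within FFA 0.565, for he1.2 r was 0.163 and rho 0.0735, and for ctslb r was -0.0527 and rho -0.076. With that share as a covariate of the fit, cd63 was called in all 3 comparisons: 0.25 for FFA against control (adjusted p = 0.00291), -0.17 for glucose against control (adjusted p = 0.0177) and 0.43 for FFA against glucose (adjusted p = 4.25e-06). Calls rose over all genes too. In that order of comparisons, the fit with the covariate called 649, 2522 and 3978 of 13539 genes, beside 246, 1474 and 2299 without it. The covariate left he1.1 at 4.0 for FFA against control (adjusted p = 2.84e-05).

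**Figure D2:**
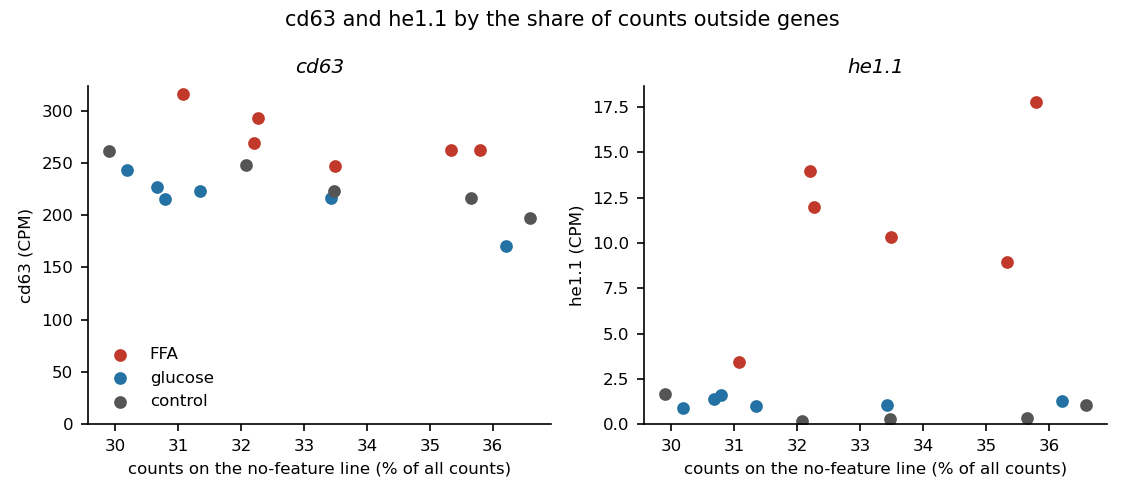
Level of cd63 and of he1.1 (CPM, linear axes from 0) against the share of all counts on the no-feature line (%), 1 point per library. cd63 is lower where that share is larger within each group, with FFA pools above the others at like shares, while he1.1 is high in the 6 FFA libraries and overlaps between glucose and control.

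Among 39 other tetraspanin genes tested, 0 were called in FFA against control by edgeR (median log2 fold change 0.08), where 1.82% of all genes were. Of the 39, 6 had an unadjusted p under 0.05, and 0 were called by limma-voom and 1 by DESeq2. In glucose against control, where edgeR called 10.9% of all genes, 2 of the 39 were lower. They were tspan34, at 1.52 ± 0.393 CPM in glucose and 3.04 ± 0.606 CPM in control (-0.96, adjusted p = 0.00162), and tspan4a (-0.33, adjusted p = 0.0259). The tspan4a call ended without control replicate 1 or 4 or glucose replicate 1 or 2 (adjusted p 0.0521 to 0.0672). In FFA against glucose 8 of the 39 were higher and 0 lower, with a median of 0.14, where edgeR called 17.0% of all genes. The higher ones included cd9a (0.36 ± 0.0694, adjusted p = 0.00213) and tspan34 (0.68 ± 0.168, adjusted p = 0.00977). cd63 is also a marker of late endosomes and lysosomes. Of 29 other lysosome genes 0 were called by edgeR in FFA or in glucose against control (4 and 5 at an unadjusted p under 0.05; DESeq2 called 1 and 3, limma-voom 0 and 0). In the direct comparison, where 17.0% of all genes were called, 3 of the 29 were higher in FFA than in glucose: lamp1b (0.22), atp6v0ca (0.13) and psap (0.22).

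klf17, the transcription factor, did not separate the groups. It ran from 12.5 through 16.6 to 20.1 CPM in FFA and from 11.2 through 15.3 to 18.3 CPM in glucose, against 14.7, 13.8, 14.9, 21.9 and 13.9 CPM in the controls. The means were 16.6 ± 2.61 CPM in FFA, 15.1 ± 2.92 CPM in glucose and 15.8 ± 3.41 CPM in control. The log2 fold change was 0.07 for FFA against control (95% interval -0.26 to 0.39, edgeR adjusted p = 0.973), -0.07 for glucose against control (adjusted p = 0.811) and 0.14 for FFA against glucose (adjusted p = 0.570). The interval excludes a difference of the size seen in he1.1 or he1.2. Where edgeR called 1.82% of all genes, 1 of 17 other Krüppel-like factor genes tested was higher in FFA than in control. It was klf6a, at 210 ± 7.0 CPM in FFA and 159 ± 14.1 CPM in control (0.40 ± 0.0745, adjusted p = 0.00792). In glucose against control, where edgeR called 10.9% of all genes, 0 of the 17 were called by edgeR or limma-voom and 2 by DESeq2. There 5 had an unadjusted p under 0.05 by edgeR. By edgeR 3 were higher and 1 lower in FFA than in glucose, where 17.0% of all genes were called.

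Other genes tied to the gland's formation or to secretion differed by less than the hatching enzymes, with log2 fold changes of -0.30 to 0.44 for FFA against control. The list held prdm1a, a transcription factor expressed in the prechordal plate and hatching gland, gsc, a transcription factor of the prechordal plate, foxa3, xbp1 and sec23b, which serve secretory cells, agr2, bmp4 and he1.3. Of the 7 tested, 1 was called higher in FFA than in control by edgeR and limma-voom, and 4 had an unadjusted p under 0.05, 3 of them higher. DESeq2 also called agr2, as lower (edgeR -0.30, adjusted p = 0.129). prdm1a had 29.3 to 36.1 CPM in FFA, against 25.6 to 27.1 CPM in control, with all 6 FFA pools above all controls. Libraries of these groups did not overlap for 2.30% of all genes. The prdm1a log2 fold change was 0.32 ± 0.0713 (edgeR adjusted p = 0.0232). The call ended in 7 of 11 fits that left out 1 library, those without control replicates 1, 2, 3 or 6 or FFA replicates 3, 4 or 5 (adjusted p 0.0509 to 0.0616). In glucose against control prdm1a (0.25, adjusted p = 0.0300) and sec23b (0.50, adjusted p = 0.0336) were higher by edgeR, DESeq2 and limma-voom. Each of these calls also ended in 7 of 11 such fits. For prdm1a they were those that left out control replicate 1, 2, 3 or 6, or glucose replicate 2, 5 or 6, (adjusted p 0.0543 to 0.0719), and for sec23b those that left out control replicate 1, 2, 3 or 6, or glucose replicate 1, 2 or 3, (adjusted p 0.0595 to 0.0802). gsc averaged 18.0 ± 0.91 CPM in FFA and 17.3 ± 2.19 CPM in control, foxa3 30.3 ± 3.45 and 30.8 ± 1.59 CPM, and xbp1 313 ± 16.2 and 311 ± 21.7 CPM. In FFA against glucose 0 of the 7 were called by edgeR, DESeq2 or limma-voom, and 0 had an unadjusted p under 0.05 by edgeR. The shares of all genes called by edgeR were 1.82% in FFA against control, 10.9% in glucose against control and 17.0% in FFA against glucose.

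Other proteases of the astacin family, to which the hatching enzymes belong, did not exceed control as the hatching enzymes did in FFA pools. Of 8 tested, edgeR called 0 higher and 2 lower in FFA than in control, with a median log2 fold change of -0.23, and 4 had an unadjusted p under 0.05, 1 of them higher. DESeq2 called 1 higher and 3 lower, and limma-voom 0 higher and 1 lower. c6ast4, a six-cysteine astacin gene, had 53.8 as the lowest, 68.7 as the median and 83.3 CPM as the highest FFA value, against 124, 172, 89.2, 155 and 107 CPM in the controls. The groups did not overlap, as for 2.30% of all genes. Its log2 fold change was -0.92 ± 0.186 (adjusted p = 0.0133). bmp1a, a procollagen protease, was lower in FFA by 0.23 on the log2 scale (edgeR adjusted p = 0.0449). That call ended in 9 of 11 fits that left out 1 library (adjusted p 0.0582 to 0.106). It held in those without control replicate 1 or FFA replicate 6. In glucose against control 4 of the 8 were lower and 0 higher by edgeR, DESeq2 and limma-voom, with 4 at an unadjusted p under 0.05: the meprin genes mep1a.2 (-5.24, adjusted p = 1.76e-06) and mep1a.1 (-2.34, adjusted p = 2.10e-06), c6ast4 (-1.46, adjusted p = 8.03e-05) and c6ast3 (-1.39, adjusted p = 0.000104). c6ast3 averaged 2.80 ± 0.743 CPM in FFA, 1.24 ± 0.208 in glucose and 3.28 ± 0.605 in control. npsn, the nephrosin gene known from neutrophils, averaged 36.7 ± 4.69 CPM in FFA, 30.1 ± 4.35 in glucose and 28.0 ± 3.55 in control. It was not called by edgeR (FFA against control 0.39, adjusted p = 0.101) or limma-voom (adjusted p = 0.0913), but DESeq2 called it higher (0.38, adjusted p = 0.038). In FFA against glucose edgeR called mep1a.2 (4.68), mep1a.1 (1.60) and c6ast3 (1.15) higher and 0 lower, with 7 at an unadjusted p under 0.05. The mep1a.2 value exceeded that of he1.1 there (3.2). mep1a.2 averaged 3.11 ± 1.05 CPM in FFA, 0.114 ± 0.0891 in glucose and 4.63 ± 1.99 in control. DESeq2 called 4 higher and 1 lower there, and limma-voom 4 higher and 0 lower. For comparison, edgeR called 1.82% of all genes in FFA against control, 10.9% in glucose against control and 17.0% in FFA against glucose.

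**Figure D3:**
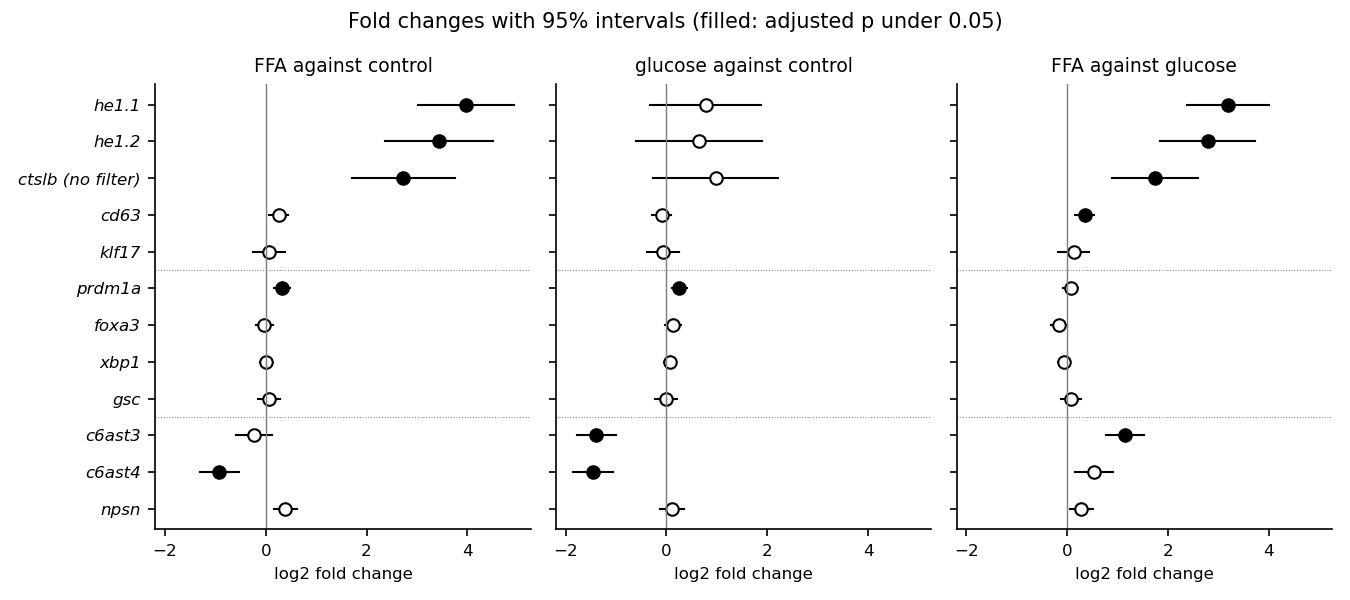
Log2 fold change (point) and 95% interval (line) of the 5 hatching gland genes, of 4 transcription factors of the gland or of secretory cells and of 3 other astacin proteases, 1 panel per comparison; filled points had an adjusted p under 0.05, and ctslb comes from the fit without a count filter. he1.1, he1.2 and ctslb lie at 3.98, 3.44 and 2.73 for FFA against control, while klf17 lies at 0.07 and c6ast4 at -0.92.

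Prolactin is a pituitary hormone that is known in fish to act on hatching. Of 7 tested genes of its axis (prl, prlra, prlrb, drd2a, drd2b, socs2 and cish), 0 were called in FFA against control by edgeR, DESeq2 or limma-voom, and 1 had an unadjusted p under 0.05. Over all genes edgeR called 1.82% in FFA against control, 10.9% in glucose against control and 17.0% in FFA against glucose. prl averaged 3.78 ± 0.834 CPM in FFA, 3.03 ± 0.842 in glucose and 4.59 ± 0.591 in control (FFA against control -0.27, adjusted p = 0.766; glucose against control -0.59, adjusted p = 0.0539). The receptor gene prlra averaged 14.3 ± 1.36 CPM in FFA, 9.86 ± 0.898 in glucose and 12.8 ± 2.98 in control, and was higher in FFA than in glucose (0.54 ± 0.120, adjusted p = 0.00552). prlrb, the other receptor gene called there (0.65, adjusted p = 0.0399), lost its call in 9 of 12 fits that left out 1 library, all but those without glucose replicate 2 or FFA replicates 3 or 6 (adjusted p 0.0534 to 0.104). In glucose against control edgeR called 1 of the 7 lower, DESeq2 3 (prl, prlra and socs2) and limma-voom 2 (prl and socs2). None of the tools called 1 higher, and 5 of the 7 had an unadjusted p under 0.05 by edgeR, all lower. The edgeR call was socs2, a feedback inhibitor of cytokine receptors (-0.45, adjusted p = 0.0390). That call ended in 8 of 11 such fits, all but those without control replicate 3 or glucose replicates 3 or 4 (adjusted p 0.0552 to 0.0952).

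The genes whose pattern was most like that of he1.1 were looked for among 13226 others with a mean of at least 1 CPM. Over all 17 libraries, in log2(CPM + 1), the 9 highest Pearson r were those of he1.2 (0.974), mmp9 (0.932), atf3 (0.921), trib3 (0.914), sgk1 (0.909), arrdc3a (0.903), acp5a (0.902), arrdc3b (0.899) and fosl1a (0.893). Such r values rest mainly on the gap between FFA and the other libraries, which these genes share. mmp9 encodes a matrix metalloprotease, atf3 a stress-response transcription factor, trib3 a pseudokinase of the stress response, sgk1 a kinase, arrdc3a and arrdc3b arrestin-like proteins, and fosl1a an AP-1 subunit. acp5a, for example, an acid phosphatase gene, averaged 8.20 ± 2.68 CPM in FFA and 2.64 ± 0.592 CPM in control. In deviations from the group means the likeness of he1.2 held (r = 0.909), while r of he1.1 was -0.28 with cd63 and 0.207 with klf17. The highest after he1.2 were cd7al (0.823), lpin1 (0.812), chek1 (0.796), chd1l (0.783), polm (0.782), xgb (0.778), tm4sf18 (0.773), setmar (0.75) and tmod2 (0.746). None of the genes after he1.2 is in the first list. lpin1 encodes a phosphatidate phosphatase, chek1 a checkpoint kinase, polm a DNA polymerase and xgb a globin. For cd63 the most like genes over all libraries were sdcbp2 (0.96), si:dkey-42i9.6 (0.948), serpinf2b (0.942), zgc:110410 (0.929), agt (0.927), ppdpfb (0.923), mpeg1.1 (0.918), rgs4 (0.909), nupr1b (0.904) and tspan36 (0.9), a list without he1.1, he1.2 or klf17. sdcbp2 encodes a syntenin, agt angiotensinogen, mpeg1.1 a macrophage perforin and tspan36 another tetraspanin. These r values are descriptions, since the libraries share their groups and, for cd63, the share of counts outside genes.

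**Figure D4:**
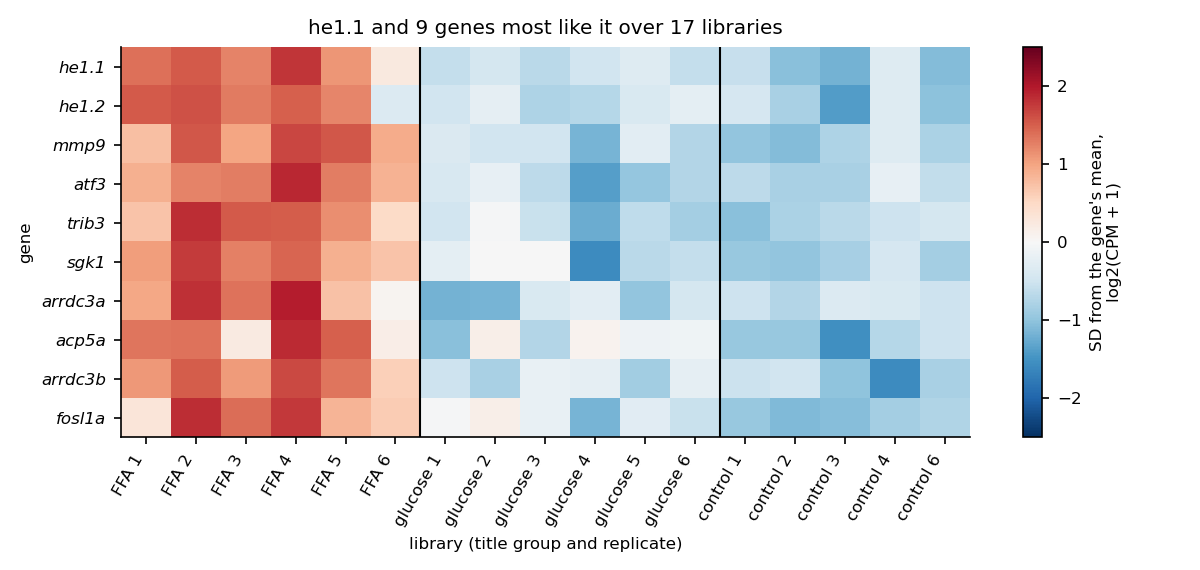
Levels of he1.1 and of the 9 genes most like it over 17 libraries, in SD from each gene's mean of log2(CPM + 1), with genes down the page and libraries across (FFA, glucose, control). FFA libraries lie above the mean in all rows, except that FFA replicate 6 lies below it for he1.2. Some lie close to the mean: replicate 6 for arrdc3a, and replicates 3 and 6 for acp5a.

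Heat shock, AP-1 and inflammation genes were high in the same pools. All 12 genes of a panel chosen with earlier results of these data known were called higher in FFA than in control by edgeR and DESeq2, and 11 of them, all but hsp70l, by limma-voom. That choice was made knowing these values, so their direction is no independent evidence. Their summed level was 570 to 822 CPM in FFA, 115 to 237 in glucose and 143 to 226 in control. Among FFA pools the hatching enzymes did not rank as hsp70l did, most of all in replicate 6. hsp70l, an inducible heat shock gene, had 53.2, 7.94, 5.20, 40.5, 9.89 and 66.3 CPM in FFA replicates 1 to 6, beside he1.1 at 12, 14, 10.3, 17.8, 8.94 and 3.43 CPM. FFA replicate 6, the highest in hsp70l, was thus the lowest in he1.1 and he1.2, and replicate 2, low in hsp70l, was second highest in he1.1. Replicate 4, also high in hsp70l at 40.5 CPM, was the highest in he1.1. fosl1a, an AP-1 gene, had 16.9, 92.1, 56.4, 85.6, 30.7 and 24.6 CPM in the same order. Within the 6 FFA libraries the correlation of he1.1 was -0.298 with hsp70l, -0.399 with hsp70.3, 0.579 with fosl1a, 0.492 with mmp9 and 0.317 with il1b. With the other members it was 0.947 for he1.2, -0.653 for cd63 and -0.185 for klf17. These values are given as descriptions. The negative sign with hsp70l rests on replicate 6, the lowest in he1.1, and r without that library is not given.

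**Figure D5:**
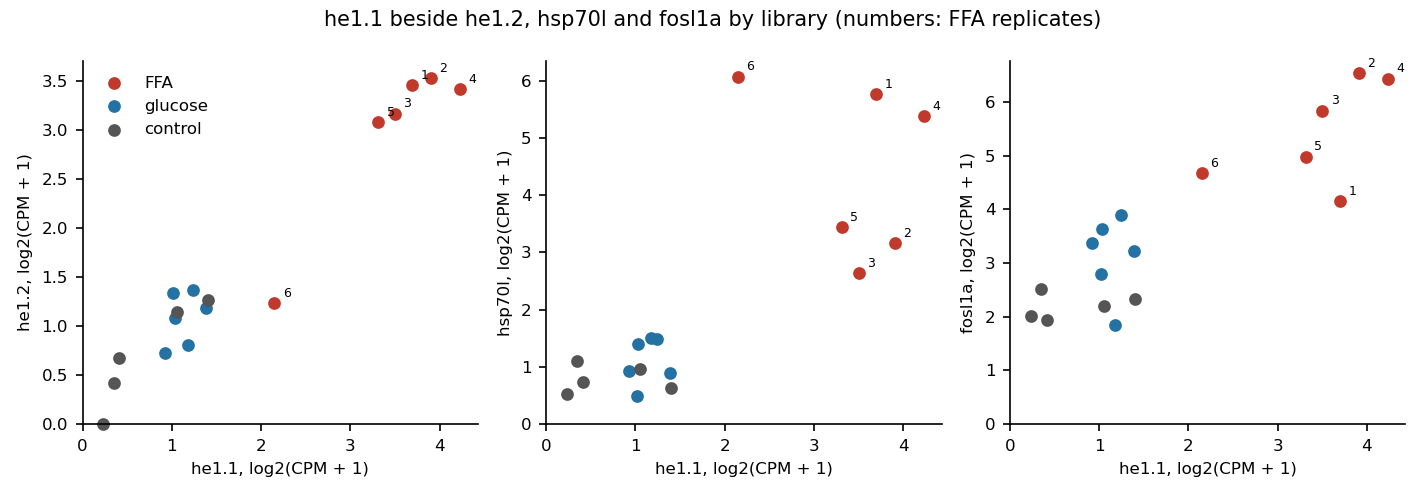
he1.1 in log2(CPM + 1) against he1.2, hsp70l and fosl1a in the same unit, 1 point per library, with FFA replicates numbered. FFA replicate 6 is highest in hsp70l and lowest among FFA pools in he1.1. Over the 17 libraries he1.2 rises with he1.1 (r = 0.974). Glucose pools rank differently in both genes: replicate 6, with 10 and 15 counts, is low among them in he1.1 and high in he1.2. Its he1.1 share of these counts has an exact 95% interval of 21.1 to 61.3%, which holds the 51.9% of the glucose group.

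Markers of other cell types that a whole embryo holds were set beside these values, and their part in them was not tested. Of 28 keratinocyte and periderm genes, which mark the skin beside the gland, 1 was called higher in FFA than in control, the claudin gene cldnb (0.70, adjusted p = 0.0317). That call ended in 7 of 11 fits that left out 1 library, those without control replicates 1, 2, 3 or 6 or FFA replicates 2, 3 or 4 (adjusted p 0.0594 to 0.0937). In FFA against glucose 0 of the 28 were higher and 4 lower by edgeR (7 at an unadjusted p under 0.05, 2 of them higher), and DESeq2 called 1 higher and 5 lower and limma-voom 0 higher and 3 lower. The summed level of the 28 was 28700 to 34500 CPM in FFA, 23700 to 38900 in glucose and 24000 to 36800 in control. Of 22 macrophage and neutrophil genes 5 were higher and 1 lower in FFA than in control by edgeR, and 10 were higher and 0 lower in FFA than in glucose by edgeR, DESeq2 and limma-voom. Their sum was 682 to 827 CPM in FFA, 422 to 598 in glucose and 449 to 580 in control. Most of the difference in the sum against control lay in cebpb (209 ± 59.7 CPM in FFA, 66 ± 6.86 in control), mmp9 (40.3 ± 9.35 and 11.5 ± 2.25 CPM) and mmp13a (17 ± 3.4 and 4.9 ± 1.01 CPM), of which mmp9 and mmp13a are also in the stress panel. The other genes of this list called by edgeR for FFA against control were lyz, cebpa and mpeg1.2. lyz (0.53, adjusted p = 0.0184) and cebpa (0.34, adjusted p = 0.0335) were higher, and mpeg1.2 (-0.75, adjusted p = 0.0449) was lower. Of the 22, 14 had an unadjusted p under 0.05, 13 of them higher. Among those not called by edgeR were mpx, csf3r, mpeg1.1 and spi1b (log2 fold changes 0.31 to 0.46, adjusted p 0.0736 to 0.397), and DESeq2 called mpx. Others differed less or were lower: csf1ra (0.11), cxcr3.2 (0.10), ncf1 (0.05), ccl34b.1 (0.01) and grn1 (-0.21), with edgeR adjusted p from 0.825 to 0.996. Exocrine pancreas genes, of which 7 of 18 were lower in FFA and 14 of 18 lower in glucose than in control, summed to 3140 to 4380 CPM in FFA, 1920 to 2630 in glucose and 4310 to 5660 in control. Photoreceptor genes summed to 2380 to 6070 CPM in FFA, 1450 to 7980 in glucose and 1720 to 9290 in control, and 0 of 21 were called by edgeR, DESeq2 or limma-voom in any comparison, with 0 at an unadjusted p under 0.05. No gene of these 4 lists was at 0 in every library of a group. Beside these counts, edgeR called 1.82% of all genes in FFA against control, 10.9% in glucose against control and 17.0% in FFA against glucose.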

How the data were processed

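Read counts per gene were measured in 17 pools of zebrafish embryos (6 FFA, 6 glucose, 5 control, grouped by title). The deposited files hold raw, whole-number counts with no normalization. The authors' libraries were stranded, from poly(A) RNA, with 75 bp paired-end reads, per the labels' protocols. STAR, DESeq2 and danRer7 are named in the submitters' processing notes. The sources used here do not give the counting tool, its use of strand or its annotation. The lines that name no gene were left out of library sizes and tests: the no-feature line held 29.9 to 36.6% of all counts and the ambiguous line 0.213 to 0.252%.

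The main test was the quasi-likelihood F-test of edgeR 4.0.16 under R 4.3.3, after filterByExpr (minimum count 10) and TMM scaling, in 1 model of all 17 libraries (14 residual degrees of freedom). p-values were adjusted by Benjamini-Hochberg over all genes tested, and genes were called under 0.05. An SE is the log2 fold change divided by the square root of F. CPM use TMM-scaled totals. 40 pairs of replicates differed beyond sampling noise (chi-square per degree of freedom 4.33 to 68.8). The procedure was tested on simulated counts. Alternatives tried: no filter, RLE scaling, scaling by library size alone, DESeq2 1.42.0, limma-voom (limma 3.58.1), a robust prior, 2 groups alone, each library left out, the replicate number as a block, the no-feature share as a covariate and grouping by the tag.

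Members and gene lists were chosen with earlier results of these data known. Named genes are the members, at most the 4 called genes of smallest p per list and comparison (all measured genes for the astacin, prolactin and gland lists), the 10 genes most like he1.1 or cd63 (1 of them is not reported here), and a stress panel. From the macrophage and neutrophil list, further genes are named for FFA against control. Gene symbols are those of the files, matched to RefSeq names where they differed. No sequences were used.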

Additional observations from a re-analysis of the deposited data

Results flagged for a closer look

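In 2 of 15 groups of values (5 genes in 3 groups of libraries), 1 library lay farther from the rest than Dixon's 95% limit, which chance gives in about 1 of 20 groups. The he1.2 level of FFA replicate 6 was 1.36 CPM, where the next lowest FFA library had 7.47 CPM (gap over range 0.663, limit 0.625). The same library was lowest of the FFA pools in he1.1 (3.43 CPM) and highest in hsp70l (66.3 CPM) and cd63 (316 CPM). The klf17 level of control replicate 4 was 21.9 CPM, where the next highest control had 14.9 CPM (0.866, limit 0.71). That library had the lowest share of counts outside genes (29.9%) and the highest he1.1, he1.2, ctslb and cd63 of the controls.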

How the results depend on the processing

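Over 390 recomputed values of 18 results (the 5 genes and the number called, in 3 comparisons), 372 were counted as unchanged. These kept their side of the threshold or, for ctslb, mostly stayed within the spread, and numbers called moved by at most 1.5 times. A change of direction counted only where a value was called. For example, klf17 in glucose against control, never called, ran from -0.13 to 0.07 when 1 library was left out. Of the 18 values that changed, 13 came from grouping by the treatment tag. By the tag, the log2 fold changes for FFA against control were 2.0 for he1.1 and 1.74 for he1.2, and for glucose against control 3.83 and 3.23. Those for FFA against glucose turned to -1.83, -1.49 and, for cd63, -0.25. The tag put the ctslb differences of mean CPM at 0.267, 0.908 and -0.642 in that order of comparisons, beside 0.935, 0.166 and 0.769 by title. By the tag 0, 2 and 0 members were called, beside 2, 0 and 3 by title. The no-feature share as a covariate called cd63 for FFA against control (0.25) and glucose against control (-0.17, 1 member called). Without the filter ctslb was called at 2.73 for FFA against control and 1.75 for FFA against glucose.

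Leaving out 1 library in turn ended no call of a member. For FFA against control he1.1 ran from 3.76 to 4.52 and he1.2 from 3.16 to 3.79, and cd63 for FFA against glucose from 0.29 to 0.39. DESeq2 and limma-voom gave he1.1 adjusted p-values of 1.34e-15 and 0.00181 for FFA against control, and he1.2 1.14e-08 and 0.0228. Under a block for the replicate number he1.1 stood at 4.0 (adjusted p = 0.000885) and he1.2 at 3.42 (adjusted p = 0.0122). The numbers do not pair the pools (correlations of same-numbered deviations -0.802 to 0.593), and the block gave 118 called genes for FFA against control, beside 246, and 910 for glucose against control, beside 1474. Calls moved by over 1.5 times also under the covariate (649, 2522 and, for FFA against glucose, 3978 beside 2299), by the tag (1, 106 and 511) and, for FFA against control, with DESeq2 (381), with 2 groups alone (162) and without control replicate 6 (157). The block ended, of the named non-member calls, those of prdm1a (both treatments), c6ast4, bmp1a, klf6a, lgmn, ctsbb, ctsl.1, cldnb (each for FFA against control), sec23b, socs2 and prlrb; library size alone ended those of bmp1a and, for glucose, prdm1a. For named non-members, grouping by the tag was not run. At a mean near 1 CPM or below, depth limits what can be seen, since 3 counts are 0.173 to 0.307 CPM. This holds for he1.1 and he1.2 in control and glucose and for ctslb in every group.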
